A study of Mus musculus with 4 samples.

Results

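BRDT islands that lay at the same place in both germ cell stages were described here. An island is a stretch of the genome called as enriched in a chromatin immunoprecipitation (ChIP-seq) library. The members were chosen by position and width: an island of chromosomes 1 to 19 is a member when its overlap with an island of the other stage covers at least 50% of the width of both. By this rule 601 of the 5424 autosomal pachytene islands and 601 of the 5558 autosomal round spermatid islands were members. The whole lists hold 5452 and 5618 islands. Members make up 11.1% of the autosomal pachytene list (exact 95% interval 10.3 to 11.9) and 10.8% of the round spermatid list (10.01 to 11.7). These percentages are the background over each list and follow from the rule itself, so nothing is read from them.

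All 4 libraries of the study came from wild-type mice of the strain 129 Sv/Ev, and each antibody was used once per stage. The BRDT libraries used an antiserum made in the submitters' laboratory, and the controls used IgG. For the pachytene stage, testis tubules of animals aged 18 days were sheared and filtered into a cell suspension that was not sorted, so spermatogonia, earlier spermatocytes and some Sertoli cells were present, which per the labels do not express BRDT. For the round spermatid stage, testes of 7 adult animals were digested, germ cells settled by gravity in a gradient of BSA, and the pooled fractions held at least 90% round spermatids by DNA content. Age and purification therefore changed together with the stage, and their parts cannot be told apart. No file of the IgG libraries was used here. With 1 BRDT library per stage there is no replicate check, and no test of a difference between stages was made. Read depth is unknown, and the intervals given below reflect only the counting of islands.

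BRDT is a BET family protein of the testis with 2 bromodomains, modules that bind acetylated lysines on histone tails. Male mice without the protein fail in meiosis, and mice that lack only its first bromodomain make misshapen spermatids and are sterile. Pachytene spermatocytes are in the long stage of meiotic prophase in which homologous chromosomes are fully paired. Round spermatids are haploid cells that still package their DNA with histones, before transition proteins and protamines take over. A matched place is thus one called in a library from cells before the meiotic divisions and in a library from cells after them.

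Matching was one to one, which follows from the rule. No member had more than 1 partner under the rule (0 of 601 in each list). A further partner would need islands of the same list that meet edge to edge within the member. Nothing is therefore read from this count. A total of 8 pachytene members and 4 round spermatid members also touched a further island of the other stage that did not reach the rule. The 601 pairs were 62.1% of the 968 overlapping pairs on the autosomes, and they held 69.9% of the 2.15 Mb called in both lists. Shared stretches of the pairs summed to 1505 kb. This was 84.0% of the 1.79 Mb under pachytene members and 76.3% of the 1.97 Mb under round spermatid members. Set against everything called on the autosomes, the same 1505 kb was 9.41% of the pachytene islands and 7.52% of the round spermatid islands.

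Overlap ranged from the threshold to identity, and some pairs lay exactly at 50%. Over the members, the overlap covered a median of 70.6% of the wider island, with quartiles of 58.8% and 81.3%. It reached 75% or more in 244 pairs (40.6%) and 90% or more in 63 pairs (10.5%). In 40 pairs the overlap was exactly 50%. Widths and overlaps are multiples of 200 bp, so exact simple ratios recur, and pairs at other exact values were not counted. An example just inside is chr2:28462801-28464000 in pachytene cells (1200 bp), which lay within chr2:28462601-28465000 in round spermatids (2400 bp). Others at the same value were chr2:21122601-21123800 with a spermatid island of 2000 bp, chr2:155621201-155622800 with one of 3200 bp, and chr2:32603601-32608800, where the pachytene island of 5200 bp was the wider. Just outside lay chr14:22921401-22930000 (8600 bp, overlap 48.8% of the wider island), chr15:79754201-79761200 (7000 bp, 48.6%), chr15:36084401-36087600 (3200 bp, 48.5%) and chr17:36565601-36568600 (3000 bp, 48.4%). In each of these 4 the narrower island lay wholly inside the wider one. The rule left them out through width alone.

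**Figure D1:**
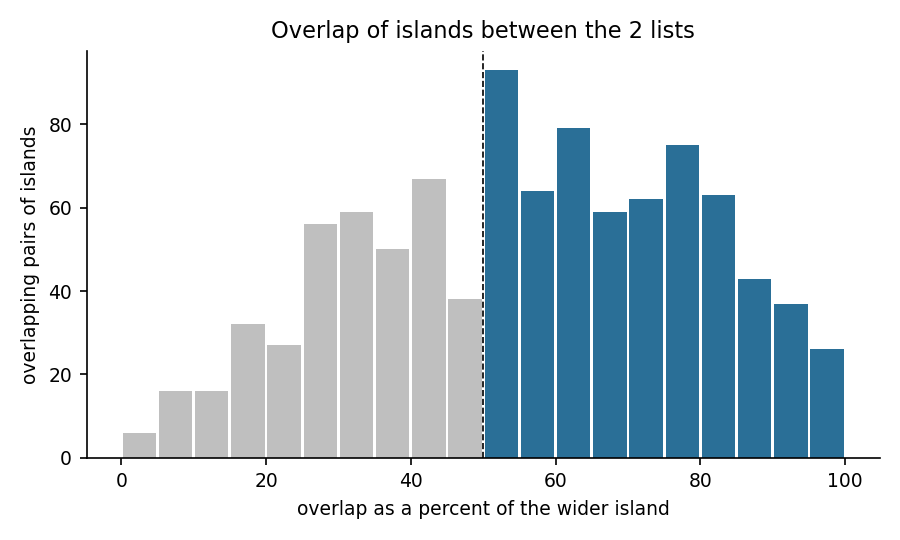
Overlap as a percent of the wider island (x axis, classes of 5%) against the number of overlapping pairs of islands on chromosomes 1 to 19 (y axis). Coloured bars to the right of the dashed line at 50% are the matched pairs. Their fullest class, from 50 to 55% with 93 pairs, holds the 40 pairs that lie exactly at the threshold.

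Edges of paired islands were compared on the 200 bp grid that both lists use. The rule itself keeps the edges and centres of a pair near each other, so these values describe the pairs and show no agreement beyond the rule. The start was the same in 122 pairs (20.3%) and the end in 103 pairs (17.1%). Exactly 1 edge was shared in 187 pairs and both edges in 19. Both edges lay within 400 bp of each other in 174 pairs (29.0%) and within 1000 bp in 405 pairs (67.4%). Centres were a median of 400 bp apart (quartiles 200 and 700 bp), and 547 pairs (91.0%) had centres within 1000 bp. For comparison, a pachytene member had a median width of 2600 bp.

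Where the edges differed, the round spermatid island more often reached further out on both sides. Its start lay earlier in 273 pairs and later in 206, and its end lay later in 303 pairs and earlier in 195. The pachytene island sat inside the round spermatid island in 251 pairs (41.8%), and the reverse held in 135 pairs (22.5%). The remaining pairs with unequal edges were staggered. In 107 of them the round spermatid island was displaced towards higher positions, and in 89 towards lower positions. Displacement along the chromosome was thus split almost evenly between the directions. Wider round spermatid islands are not particular to the members. The median over all autosomal islands was 3200 bp in round spermatids and 2600 bp in pachytene cells. For islands that overlapped without matching it was 4000 and 2200 bp.

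**Figure D2:**
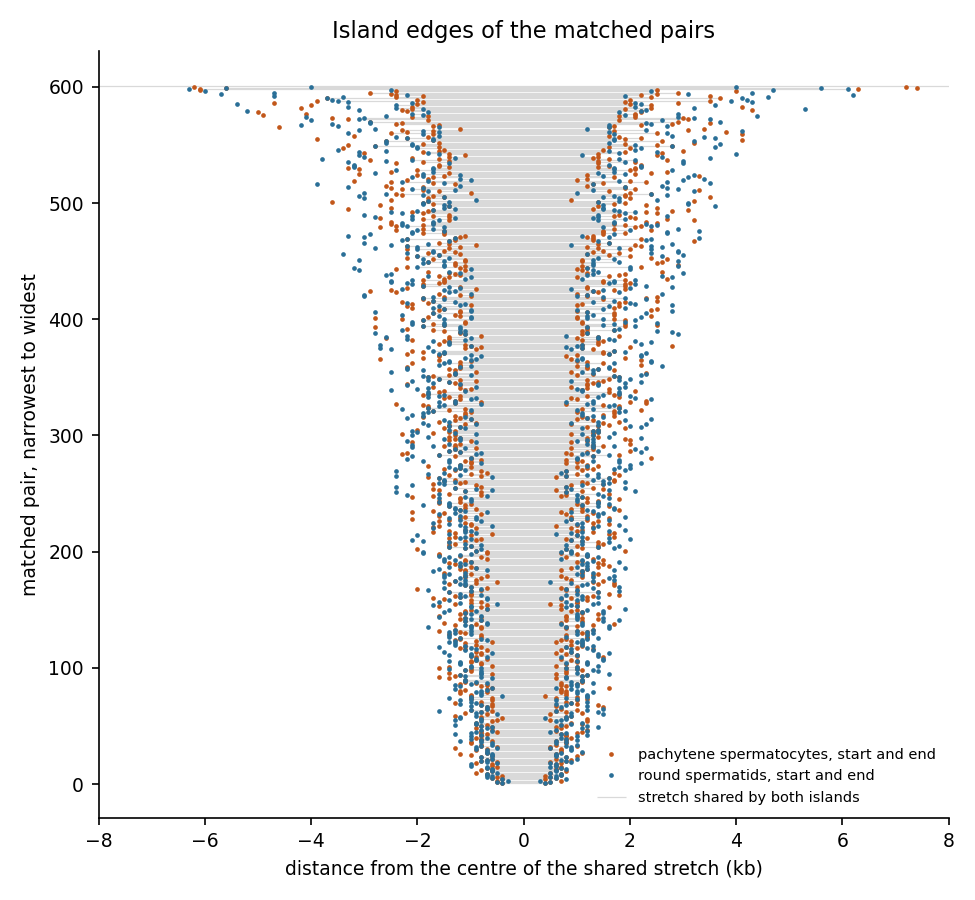
Start and end of each island of the 601 matched pairs as distance in kb from the centre of the stretch the pair shares (x axis), with pairs ordered from the narrowest to the widest joint span (y axis). Orange points are pachytene edges, blue points round spermatid edges and grey lines the shared stretch. Edges of both stages run side by side, and 1 pair, on chromosome 3, has edges beyond the 8 kb limit of the axis.

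Round spermatid members were somewhat wider than their pachytene partners, and the difference lay mostly in the looser pairs. Width is part of the rule, which holds the ratio of the 2 widths between 0.5 and 2. The pachytene members had a median of 2600 bp with quartiles of 2000 and 3600 bp. For the spermatid members the median was 3000 bp, between quartiles of 2200 and 3800 bp. The median difference within a pair was 200 bp (exact interval of the median 200 to 400 bp), 1 step of the grid. The spermatid island was wider in 345 pairs (57.4%), the pachytene island in 214 (35.6%), and 42 had equal widths. Among the 244 pairs with at least 75% overlap, 120 were wider in round spermatids, 87 in pachytene cells and 37 equal, with a median difference of 0 bp. Among the other 357, the numbers were 225, 127 and 5, with a median difference of 800 bp. A limit on overlap also limits how far the widths can differ, so this contrast is partly built in. All islands of the round spermatid list on the autosomes had a median of 3200 bp against 2600 bp in the pachytene list.

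The extremes of the ratio show what the rule still admits. Round spermatid islands were exactly 2 times as wide as their partners in 24 pairs, and pachytene islands were so in 4. On chromosome 2, chr2:164436201-164437600 (1400 bp) met a spermatid island of 2800 bp, and chr2:180629601-180632400 (2800 bp) met one of 5600 bp. On chromosome 3, the pachytene island chr3:58780001-58781600 shared its end with a spermatid island that began 1600 bp earlier. In the opposite direction, chr10:66164601-66171800 was 7200 bp wide in pachytene cells and held a spermatid island of 3600 bp. Similarly, chr9:101792201-101796200 (4000 bp) held one of 2000 bp, and chr17:27102001-27108200 (6200 bp) shared its end with one of 3200 bp.

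**Figure D3:**
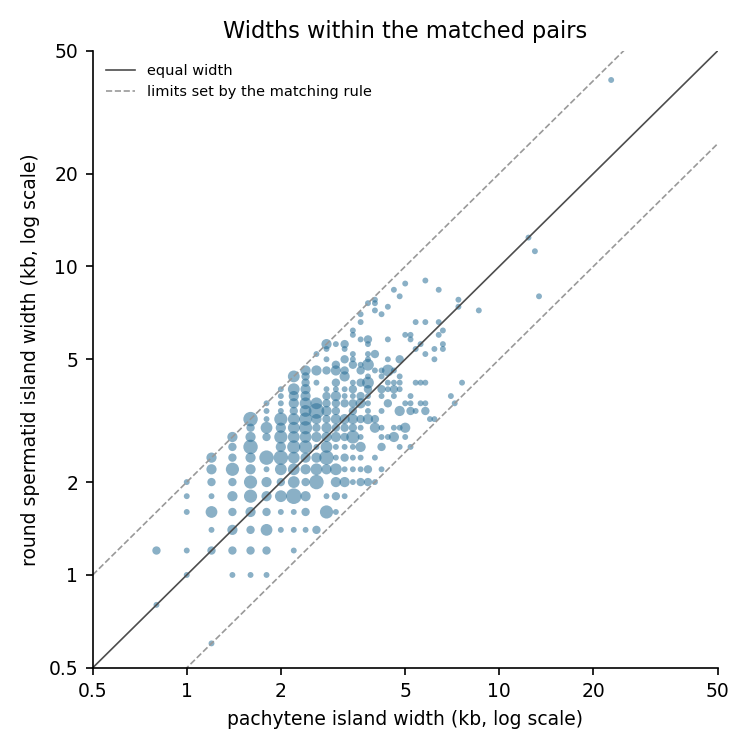
Width of the pachytene island (x axis, kb, log scale) against that of its round spermatid partner (y axis, kb, log scale) for the 601 matched pairs. Point area is proportional to the number of pairs with the same widths, and the dashed lines are the limits that the rule sets. More pairs lie above the line of equal width (345) than below it (214).

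In 19 pairs the islands of both stages had the same start and the same end. They ranged from 800 to 5600 bp and lay on 12 autosomes. The widest was chr17:30301001-30306600 (5600 bp). Sites of 3600 bp followed at chr4:109162001-109165600, chr10:68297001-68300600 and chr14:117162001-117165600. Next were chr8:113731801-113735000 (3200 bp), chr1:178649001-178651800 and chr17:6207601-6210400 (both 2800 bp), chr4:120594601-120597200 (2600 bp) and chr1:134957001-134959400 (2400 bp). Widths of 2200 bp were found at chr17:30348401-30350600 and chr18:3336601-3338800. At chr9:48246801-48248400 and chr11:102696401-102698000 both islands spanned 1600 bp.

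The distance to the nearest other island varied widely among the identical pairs. At chr1:58367601-58369000 (1400 bp) the nearest other island of either list was 205 kb away, and at chr2:111029801-111031200 (1400 bp) it was 1034 kb away. The distance was 31.4 kb at chr17:80004401-80005800 (1400 bp), 232.6 kb at chr5:108305601-108306800 (1200 bp), 260.4 kb at chr15:66329801-66330800 (1000 bp) and 228.4 kb at chr2:19116801-19117600 (800 bp). The longest distances were at the narrowest of the 19 pairs. Those of 1400 bp or less had distances of 31.4 to 1034 kb, and none of the wider ones exceeded 132.2 kb. Among the wider ones, distance was 132.2 and 76.8 kb for the pairs of 3600 bp on chromosomes 4 and 10. It was 0.6 kb for the one on chromosome 14 and for the widest, and 1 and 2.2 kb for those of 1600 bp. A relation of distance to width was not tested. Chromosome 17 held 4 of the 19 identical pairs, beside 38 of all 601 pairs (6.32%), and this count was not tested. Of these 4, 2 lay within 50 kb of each other.

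The widest matched places were few, with a mean width over 10 kb in 4 pairs. On chromosome 3, a pachytene island of 22.8 kb (chr3:25725801-25748600) ended at the same base as a spermatid island of 40.2 kb. A second chromosome 3 pair, both of 12.4 kb, was shifted by 200 bp at each edge (chr3:3007001-3019400 in pachytene cells). On chromosome 1, chr1:90042601-90055600 was 13.0 kb in pachytene cells and 11.2 kb in round spermatids with the same start. On chromosome 15, chr15:78491801-78505200 was 13.4 kb in pachytene cells and held a spermatid island of 8.0 kb.

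Wide pairs below 10 kb included chr6:87952001-87960600, 8600 bp in pachytene cells and 7200 bp in round spermatids, with an overlap of 5000 bp. The chromosome 4 pair at chr4:3006401-3013800 had the same start and widths of 7400 and 7800 bp. Another on chromosome 1, chr1:90112801-90120200, was 7400 bp wide in both stages and 400 bp displaced. The last of the 8 widest, chr17:26967601-26974000, was 6400 bp wide and met a spermatid island of 8400 bp over 4800 bp. The pairs starting at 3007001 on chromosome 3 and 3006401 on chromosome 4 lie near the lowest start on any autosome in either list, 2999801. Within 1 Mb of that position there were 10 pairs, 20.4% of the 49 pachytene islands there (interval 10.2 to 34.3) and 18.9% of the 53 round spermatid islands (9.44 to 32.0), beside 11.1% and 10.8% over the autosomes. The autosomal shares lie within these intervals. Whether IgG reads also collect within this 1 Mb was not tested.

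Every autosome had matched islands of several kb in both stages. The widest pair was 6600 and 5400 bp on chromosome 2 (chr2:174207401-174214000 in pachytene cells), 5400 and 3400 bp on chromosome 5 (chr5:34500601-34506000), and 6400 and 6600 bp on chromosome 7 (chr7:127556401-127562800), pachytene width first. On chromosome 8 it was chr8:12831001-12836200 with 5200 and 6000 bp, on chromosome 9 chr9:57058001-57065600 with 7600 and 4200 bp, and on chromosome 10 chr10:127493801-127498800 with 5000 and 8800 bp. Chromosomes 11, 13 and 16 had similar sizes in both stages. These were chr11:94335001-94340000 with 5000 and 6000 bp, chr13:21988001-21993200 with 5200 and 5800 bp, and chr16:59495801-59501600 with 5800 and 5200 bp.

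On chromosome 12 the widest pair, chr12:103711801-103718400, was 6600 bp in pachytene cells and 5600 bp in round spermatids. Chromosomes 14, 18 and 19 had a wider spermatid island in each case. The pairs were chr14:45921801-45926400 with 4600 against 8400 bp, chr18:31774201-31778600 with 4400 against 5800 bp, and chr19:59398001-59401400 with 3400 against 6200 bp. Over all 19 autosomes, the wider partner in the widest pair was thus found in either stage.

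At the narrow end, 5 pairs had a mean width of 1000 bp or less. Besides the identical pairs at chr2:19116801-19117600 and chr15:66329801-66330800, these were chr3:103064401-103065600 (1200 bp, with a spermatid island of 600 bp), chr4:99976401-99977200 and chr9:79545201-79546000. Each of the last pair of sites was 800 bp in pachytene cells and 1200 bp in round spermatids. Of the 301 autosomal pachytene islands up to 1000 bp, 8 were members (2.66%) and 52 overlapped an island of the other stage. Of the 87 round spermatid islands of that size, 6 were members (6.90%) and 9 overlapped.

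The share of members differed between width classes. From 1000 to 2000 bp, 10.1% of pachytene islands (152 of 1507) and 12.4% of round spermatid islands (119 of 960) were members. Among pachytene islands the share of members was 14.5% from 2000 to 3000 bp (227 of 1569), 10.5% from 3000 to 4000 bp, 9.96% from 4000 to 6000 bp, 12.7% from 6000 to 10000 bp (15 of 118) and 10.8% above (4 of 37). In round spermatids it was 12.3% from 2000 to 3000 bp (201 of 1628), 12.0% from 3000 to 4000 bp, 8.88% from 4000 to 6000 bp and 4.90% from 6000 to 10000 bp (22 of 449) and 4.76% above (3 of 63). From 6000 to 10000 bp 19.8% overlapped some pachytene island. Islands that overlapped without matching had a median width of 4000 bp in round spermatids and 2200 bp in pachytene cells, against 3000 and 2600 bp for members. Width entered the rule, so these shares describe the rule as well as the islands.

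Most matched pairs had no other matched pair within 100 kb, and most had another matched pair within 1 Mb. The joint spans of neighbouring pairs on a chromosome were a median of 1683 kb apart (quartiles 537 and 5000 kb). Of the 1 Mb windows, 364 held 1 pair, 81 held 2, 15 held 3, 5 held 4 and 2 held 5. Joining pairs closer than 100 kb left 523 of the 601 as single pairs, with 38 groups among the rest and at most 3 pairs in a group. Joining those closer than 1000 kb left 243 single and put 358 in 132 groups of up to 6 pairs. No other island of either list lay within 10 kb of 436 pairs (72.5%), and none within 100 kb of 114 pairs (18.97%). Most pairs thus had some other island within 100 kb, matched or not. The same counts were not made over all islands, so these describe the members only.

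The most isolated members had a free stretch of over 1 Mb on both sides. They were chr8:116520801-116522400 with 1434.6 kb to the next island of either stage, chr7:75721001-75722600 with 1220 kb, chr13:26775801-26779600 with 1185.4 kb, chr18:50692401-50694000 with 1175 kb, and the identical pair on chromosome 2 named above. Pachytene widths were 1600, 1600, 3800, 1600 and 1400 bp and spermatid widths 1800, 2800, 3600, 1200 and 1400 bp in the same order. The width ratio at the chromosome 7 place was 1.75, near the limit of 2 that the rule sets.

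The fullest windows held 5 pairs each. On chromosome 10 from 80 to 81 Mb, the 5 pairs stood among 22 pachytene and 15 round spermatid islands. They began at 80005401, 80144401, 80158001, 80471601 and 80780001 in pachytene cells, and their widths there were 1600 to 3400 bp. On chromosome 11 from 116 to 117 Mb, the lists held 9 islands each and 5 of the 9 were matched. The pachytene islands were chr11:116149601-116155200 (5600 bp), chr11:116281201-116282600 (1400 bp), chr11:116486801-116489200 (2400 bp), chr11:116667601-116670400 (2800 bp) and chr11:116930401-116933000 (2600 bp). Their spermatid partners were 3600, 2200, 3000, 3400 and 3400 bp wide. The first was narrower in round spermatids and the other 4 were wider.

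Another 5 windows held 4 pairs. The 95 to 96 Mb window of chromosome 3 had 10 pachytene and 11 spermatid islands in all, and the 87 to 88 Mb window of chromosome 6 had 8 of each. The 76 to 77 Mb window of chromosome 15 had 19 and 14. Chromosome 17 had 2 such windows, at 26 to 27 Mb with 16 and 12 islands and at 84 to 85 Mb with 6 of each. In the chromosome 17 window from 26 Mb, chr17:26228601-26233000 (4400 bp) shared its start with a spermatid island of 4600 bp, an overlap of 95.7%. In the window from 84 Mb, 4 of the 6 islands of each list were matched, from chr17:84327601-84330600 to chr17:84996801-84999800.

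Some members lay close together. On chromosome 17, 3 pairs lay within 49.6 kb from 30301001 to 30350600, and 2 of them were identical in both stages. The middle one, chr17:30307401-30309400 (2000 bp), shared its start with a spermatid island of 3400 bp. On chromosome 1, 3 pairs lay within 94 kb from 90042601 to 90136600, with pachytene widths of 13000, 7400 and 4800 bp and spermatid widths of 11200, 7400 and 8000 bp. The longest series of consecutive matched islands was 4 in the round spermatid list, on chromosome 11 from 48657801 to 50222400. In the pachytene list the longest was 3, reached at 6 places. A single member made up 469 of the 532 series in the pachytene list and 485 of the 541 in the round spermatid list. Members were 11.1% and 10.8% of the autosomal lists. Whether longer series exceed what these shares give was not tested.

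The spacing of members within their own list was near that of islands without overlap. The nearest other island of the same list was a median of 66.6 kb away for pachytene members (exact interval 56.8 to 83.0) and 68.0 kb for pachytene islands without any overlap (63.4 to 72.8). In round spermatids the medians were 65.0 kb (53.2 to 75.6) and 67.8 kb (64.4 to 73.0). Another island of the same list lay within 10 kb of 12.1% of pachytene members (interval 9.64 to 15.0) and of 15.3% of islands without overlap. The shares in round spermatids were 19.5% (16.4 to 22.9) and 20.9%. Overlapping islands that were not matched were more crowded by this measure, with 21.1% in pachytene cells (16.9 to 25.8) and 27.0% in round spermatids (22.4 to 31.9). None of these differences was tested.

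Distances to the nearest further island of the other stage, with the partner left out, were set beside those of islands without overlap. The latter have by definition no island of the other stage at distance 0, while members may touch a further one, so the classes set part of this contrast. Its median distance was 65.0 kb from pachytene members (54.2 to 75.8) and 89.6 kb from pachytene islands without overlap (85.6 to 94.8). From round spermatid members it was 66.8 kb (56.4 to 83.0), and from the islands without overlap 102.8 kb (97.8 to 109.4). Such an island lay within 10 kb of 19.5% and 12.1% of the members, against 8.43% and 9.39% of the islands without overlap. A member and its partner lie at almost the same place, so each of these distances is close to the partner's distance to its own list. Within the same list, the nearest other island was itself a member for 13.0% of pachytene members (10.4 to 15.9), close to the 11.1% over the list. For round spermatid members this share was 10.1% (7.85 to 12.8). These differences were not tested either, since islands of 1 library are not replicates.

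Chromosome 11 held the most matched pairs, 63 (10.5% of all), and also the highest share of its islands. There 14.8% of pachytene islands (interval 11.6 to 18.6) and 16.6% of round spermatid islands (13.0 to 20.8) were members, and the density was 0.518 pairs per Mb. By number, chromosome 7 came next with 48 pairs (0.331 per Mb) and chromosome 2 with 44 (0.242 per Mb). By share and density, chromosome 17 came next, with 38 pairs, 13.6% and 15.1% of its islands, and 0.408 per Mb. Chromosome 19 had 22 pairs at 0.361 per Mb.

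At the low end, chromosome 5 had 25 pairs, 7.99% of its pachytene islands (5.24 to 11.6) and 5.81% of its round spermatid islands (3.797 to 8.46), although it held the largest number of spermatid islands, 430. Chromosome 14 had 20 pairs, 9.76% and 7.19%. Chromosomes 14, 5 and 1 had the lowest densities, 0.163, 0.165 and 0.168 pairs per Mb. For most other autosomes the shares lay between 8% and 14% with intervals that overlapped one another. Of the overlapping pairs on a chromosome, the matched share ran from 50.0% on chromosome 12 (25 of 50) to 81.5% on chromosome 13 (22 of 27).

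**Figure D4:**
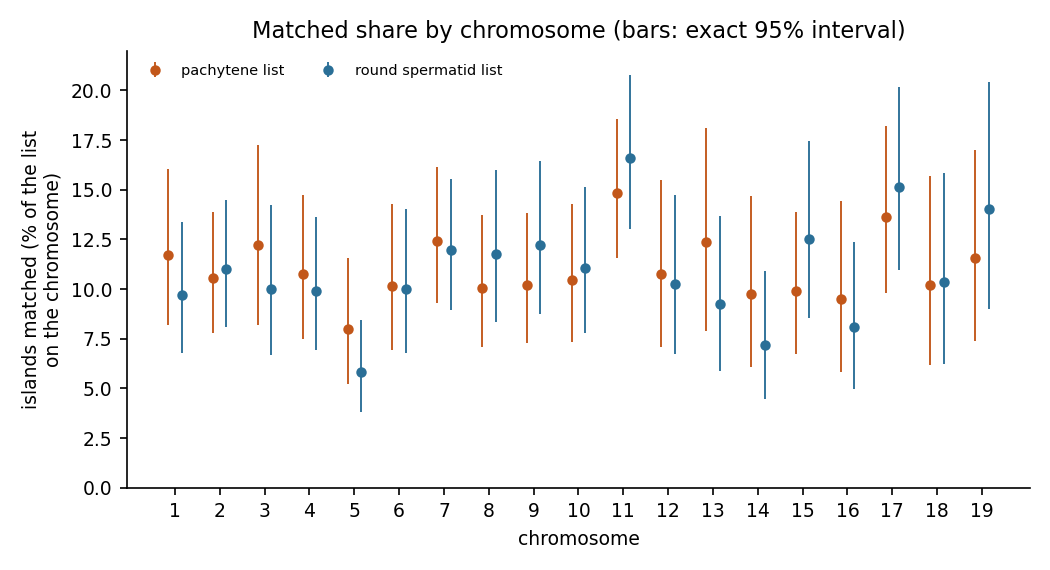
Matched islands as a percent of the islands of each list on each autosome (y axis) by chromosome (x axis), with exact 95% intervals as bars. Orange points are the pachytene list and blue points the round spermatid list. Chromosome 11 is highest in both lists (14.8% and 16.6%) and chromosome 5 lowest (7.99% and 5.81%).

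Along the chromosomes, members followed the islands towards the far end. Each autosome was divided into 5 equal parts from position 1 to its last island, and 77, 91, 105, 141 and 187 pairs lay in them in that order. As shares of the pachytene islands there, these were 10.3%, 10.8%, 11.7%, 13.0% and 10.1%. Among round spermatid islands they were 9.27%, 8.78%, 10.3%, 12.1% and 12.4%. The rising number of pairs thus went with a rising number of islands, and the shares changed less than the counts.

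The rows of the lists are not in chromosome order, and what orders them is not given in the sources used here. This comparison was chosen after the values were seen. In the pachytene list members were more frequent near the top: 14.0% of the first 543 autosomal islands were members (76, interval 11.2 to 17.2) against 6.64% of the last 542 (36, interval 4.70 to 9.08). Any overlap fell likewise, from 21.9% (18.5 to 25.6) to 11.8% (9.21 to 14.8), while the median width was 3000 bp in the first and 3200 bp in the last of these stretches. In the round spermatid list the shares of members were 7.91% in the first 556 islands (5.81 to 10.5) and 8.29% in the last 555 (6.13 to 10.9), with 12.9% as the highest value between. Any overlap there went from 19.96% (16.7 to 23.5) to 13.7% (10.9 to 16.8), and median width from 6000 to 2800 bp.

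The place of a pair in one list said little about its place in the other (Spearman's rho 0.10, Pearson's r 0.10 over 601 pairs, given as a description). Within a list, place went with width in round spermatids (rho -0.37 over the members) more than in pachytene cells (rho -0.07). Over all autosomal islands of each list, rho was -0.47 in round spermatids and 0.08 in pachytene cells, so this is not particular to members. The first 10% of the lists held 76 pachytene and 44 round spermatid members. Both partners were among these in 8 pairs, and an excess of such pairs was not tested. An example is chr7:127556401-127562800, 6400 bp in pachytene cells and 6600 bp in round spermatids, at places 351 and 214. Others were chr15:78491801-78505200 at places 34 and 175, chr17:33032801-33037600 at places 44 and 551, and chr11:50217801-50222200 at places 453 and 475. The 3 pairs with the largest mean width were at places 5368, 4472 and 4634 of the pachytene list and at places 623, 607 and 3230 of the round spermatid list.

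**Figure D5:**
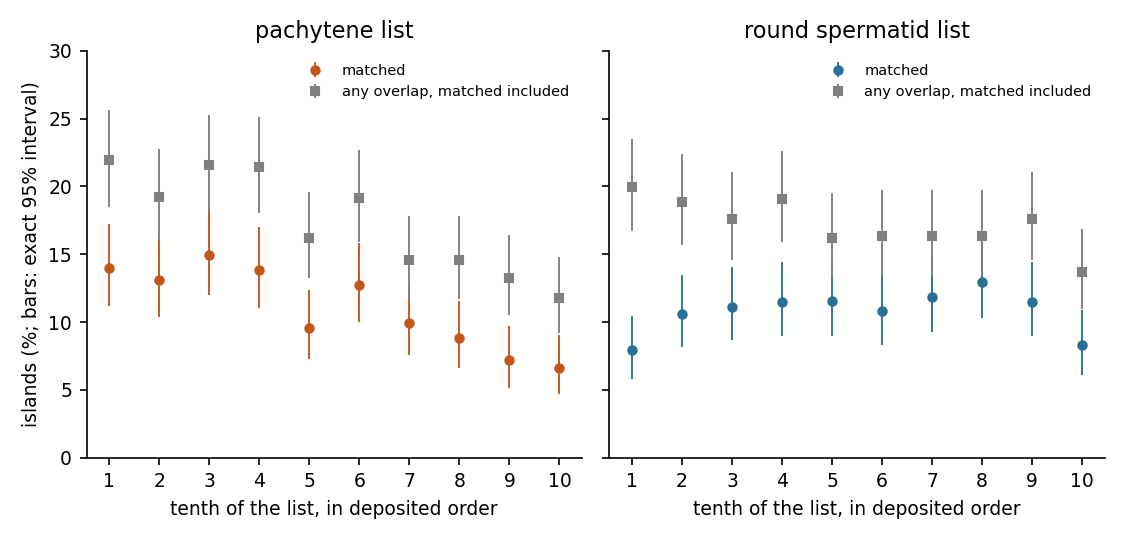
Share of islands that are matched (coloured circles) or overlap at all (grey squares) in each of 10 equal parts of the autosomal pachytene list (left) and round spermatid list (right), in the order of the deposited rows (x axis), as a percent of the islands there (y axis), with exact 95% intervals as bars. In the pachytene list the matched share goes from 14.0% at the top to 6.64% at the bottom, and in the round spermatid list from 7.91% to 8.29%.

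No genome or annotation of the build of these positions was used here. The base sequence of the members, and the genes, promoters or repeats under them, were therefore not analysed.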

How the data were processed

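BRDT and IgG ChIP-seq was made in pachytene spermatocytes and round spermatids of wild-type mice, with 1 library for each stage and antibody. Bowtie, SICER and the build mm8 are named in the submitters' processing notes, with no version of either tool. The deposited lists hold SICER peaks, per the file headers. Each gives chromosome, start and end of each island, in base pairs, and no value per island. A tag in the file names was taken to mean a false discovery rate of 10%. The caller links enriched windows of fixed size over short gaps, so an edge is known only to the nearest window, and island number and width depend on depth and settings. The sources used here do not give the settings. Every start is 1 above a multiple of 200 and every end a multiple of 200, so positions were read as 1-based and inclusive.

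Islands of chromosomes 1 to 19 were paired where the overlap reached 50% of both widths. Shares have exact Clopper-Pearson 95% intervals, and medians have exact order-statistic 95% intervals. Gaps count the bases between islands. Pairs were put in 1 Mb windows by the middle of their shared stretch. Intervals came from scipy 1.17.1, tables from pandas 2.3.3 and numpy 2.4.6, and plots from matplotlib 3.10.9, under Python 3.11.15. The pairing was tested on simulated lists. Alternatives were overlaps of 25% and 75%, joining of islands closer than 1 kb, omission of the first 1 Mb with islands, the wider islands alone, other reading of starts, X and Y, and other windows.

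The members, the tests and the rule for named pairs were chosen with earlier results of these data known. Named are pairs with equal edges, the 8 widest, the widest of each autosome, 4 on each side of the threshold, the 5 narrowest, the 5 most isolated, 5 at each end of the width ratio, and the 5 fullest windows with those tied. Ties were filled in chromosome order. Groups of neighbouring pairs, and pairs named by their place in the lists, were chosen after their values were seen. The sorting of islands by gene annotation that had been planned was not made.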

Additional observations from a re-analysis of the deposited data

Results flagged for a closer look

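The rule for members covers the autosomes only, and 4 pairs on the X chromosome met the same overlap. They are listed because they lie outside the islands described above. X held 27 pachytene and 37 round spermatid islands, with 6 overlapping pairs. The matched share was 14.8% of the former (exact 95% interval 4.19 to 33.7) and 10.8% of the latter (3.03 to 25.4), beside autosomal shares of 11.1% and 10.8%, which lie within these intervals. One of the 4 was identical in both stages, chrX:52299801-52300800 (1000 bp). The others were chrX:6221001-6224400 (3400 bp, with a spermatid island of 3200 bp and 52.9% overlap), chrX:45121801-45122800 (1000 and 600 bp, 60.0%) and chrX:120271401-120273400 (2000 and 2800 bp, 71.4%). Y had 1 pachytene and 23 round spermatid islands and no overlapping pair.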

How the results depend on the processing

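Across 57 values of 9 results under the alternatives, 34 stayed within 1.5 times the count or within the interval of the value reported, and 23 moved. These values are not independent, since both counts of members come from the same pairs. Several were also fixed in direction by the setting, so the tally is no measure of stability. The number that changed sign was 0, but only the median width difference could take a negative value. That number is therefore no sign of stability. At 75% overlap there were 244 pairs in 220 windows, the median width difference was 0 bp, 49.2% were wider in round spermatids, and the centre shift was 200 bp. At 25% overlap the number of members was within 1.5 times, the width difference was 600 bp, 62.3% were wider in round spermatids, and the centre shift was 500 bp. These move by construction, since the limit bounds widths and offsets. The wider islands alone, 50% of each list, gave 187 pairs in 167 windows, 64.2% wider in round spermatids, and a centre shift of 500 bp. In deposited order, the upper 50% of each list gave 182 pairs and the lower 50% gave 135, a check chosen after seeing the data. Joining islands closer than 1 kb lowered the shares with a neighbour within 10 kb to 9.03% in pachytene cells and 14.9% in round spermatids. Joining itself removes the nearest neighbours. Counted to the other list, these shares were 19.5% and 12.1%, which are the reported values with the stages exchanged. Windows of 5 Mb gave 287 with a pair, fewer because a wider window can hold more pairs. Reading starts as 0-based gave 561 pairs, since the 40 pairs exactly at 50% then fall just below the limit. No paired analysis was possible because each stage has 1 BRDT library. Depth is unknown, so a place missing from one list may only have missed the caller's threshold there.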
